A study of Mus musculus with 4 samples.

Results

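CD8 T cells, the killer lymphocytes that read peptides on MHC class I, were taken from single-cell RNA sequencing of mouse mammary tumors. Members were picked on their measured transcripts: a barcode needed at least 1000 UMIs (unique molecular identifiers, 1 per captured RNA molecule), at most 20% of them mitochondrial, at least 2 UMIs of Cd3d, Cd3e and Cd3g together, at least 1 of Cd8a and Cd8b1 together, and 0 of Cd4 and of Foxp3, with macrophage C1q genes and epithelial Epcam, Krt8 and Krt18 each under 10 UMIs per 10000. This rule found 592 CD8 T cells among 23572 barcodes within the depth and mitochondrial limits. The tumors came from 4-month-old mice that all carried PyMT, the polyoma middle T oncogene, driven by the MMTV promoter, and floxed Frmd8 on both alleles. Cre- mice (MMTV-Cre-; Frmd8 fl/fl; PyMT; replicates 1 and 3) carried no Cre, and littermates of the Cre+ group (MMTV-Cre+; Frmd8 fl/fl; PyMT; replicates 2 and 4) carried Cre under the MMTV promoter, which is used for mammary epithelium. The floxed and PyMT lines were on C57BL/6, no background is given for the MMTV-Cre line, and Cre+ mice were yellow and Cre- mice black, so Cre and the coat color locus or other inherited differences cannot be told apart. Whether a library was 1 animal or pooled tumors is not given in the sources used here, so p-values measure the spread between these 4 libraries, which may be technical in part. Cells had been sorted by flow cytometry before loading, so the shares of cell types follow that step as well. Members numbered 143 and 133 in the Cre- libraries and 129 and 187 in the Cre+ libraries. Where 4 values stand in a row, replicates 1 and 3 of the Cre- mice come first and replicates 2 and 4 of the Cre+ mice follow.

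A CD8 T cell carries an alpha-beta T cell receptor with the CD3 chains and a CD8 coreceptor, either the CD8 alpha-beta pair of conventional cytotoxic T cells or CD8 alpha-alpha, which is known from innate-like and epithelium-resident lymphocytes. Naive cells recirculate through lymph nodes with the chemokine receptor Ccr7 and the factors Lef1 and Tcf7, effector cells make granzymes, perforin, interferon gamma and chemokines, and cells under lasting antigen exposure take on inhibitory receptors such as PD-1 (Pdcd1), Lag3 and Tim-3 (Havcr2) with the factor Tox, a state called exhaustion. Tumors hold mixtures of these states beside tissue-resident cells.

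T cell receptor genes outside the rule were found with the label. UMIs of the receptor constant genes Trac, Trbc1 or Trbc2 were present in 592 of 592 members, and Trac stood at 629.8 and 664 CPM in the Cre- libraries and 587 and 505 CPM in the Cre+ libraries (CPM, counts per 1000000 UMIs summed over the members of a library). The 8 B cell markers summed to 238, 135, 179 and 265 CPM, with Ighm the most abundant; 3 of them, Cd79a, Ms4a1 and Iglc2, had 0 UMIs, and the part of B cell RNA in the others was not tested. Within the rule, Cd8a and Cd8b1 were both seen in 440 members, Cd8a without Cd8b1 in 133 and Cd8b1 without Cd8a in 19. Few members lay at the thresholds: 1 had exactly 2 Cd3 UMIs and 30 exactly 1 Cd8 UMI. Just outside, 5 barcodes missed the rule with 1 Cd3 UMI, 278 had the Cd3 UMIs with 0 UMIs of Cd8a, Cd8b1, Cd4 and Foxp3, 12 had Cd8 with Cd4 or Foxp3, 23 exceeded the C1q limit and 32 the epithelial limit. The median depth of the members was 7721 and 6417 UMIs in the Cre- libraries and 7858 and 13518 in the Cre+ libraries, so Cre+ replicate 4 was the deepest, and it was also counted with another version of the counting software. Their summed UMIs numbered 1300362 and 1082574 in the Cre- libraries and 1248009 and 2690925 in the Cre+ libraries, which is the depth behind the levels below. No member barcode was shared between libraries.

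Some members carried transcripts of other cells, unevenly between libraries. Stromal markers summed to 917, 300.2, 4845 and 223 CPM with Col3a1 the most abundant of the 9, so Cre+ replicate 2 stood above the rest, and 7 of its 129 members had at least 10 stromal UMIs per 10000. Granulocyte markers summed to 130.0, 1091, 6.41 and 30.1 CPM with S100a9 leading the 7 genes, the highest value being that of Cre- replicate 3. Dendritic cell markers summed to 88.4, 126, 790.1 and 105 CPM (Cd74 leading, Ccl22 at 0). Macrophage and monocyte markers summed to 275, 539, 466 and 392 CPM with Apoe leading and none of the 10 at 0, and epithelial and milk markers to 568, 618, 471 and 400.2 CPM with Wfdc18 leading and none of the 10 at 0. In all, 24 members reached 10 UMIs per 10000 of the stromal, granulocyte or dendritic list, and the tests below were repeated without them. In the barcodes of Cre+ replicate 4 with at most 100 UMIs, which approximate free RNA, Apoe stood at 8646 CPM against 165 CPM in the members of that library.

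Effector transcripts were widespread among the members. The granule protein Nkg7 was found in 97.9, 98.5, 97.7 and 96.3% of members, and after each cell was thinned to 1000 UMIs in 76.9, 86.5, 82.9 and 75.4%, against at most 0.359% of epithelial barcodes thinned alike. Granzyme B (Gzmb), a protease that triggers death of the target cell, was at 1850.2 and 1086 CPM in the Cre- libraries and 1714 and 3810.2 CPM in the Cre+ libraries. Its thinned shares of cells were 36.4% (28.5 to 44.8), 23.3% (16.4 to 31.4), 38.8% (30.3 to 47.7) and 64.7% (57.4 to 71.5) (95% exact Clopper-Pearson intervals here and below, which cover counting error only), and the unthinned shares were 56.6, 42.9, 51.2 and 80.2%. Epithelial barcodes reached at most 1.52%, in Cre+ replicate 4. Gzmb was therefore highest in Cre+ replicate 4 and lowest in Cre- replicate 3, with the genotypes overlapping. Granzyme A (Gzma) was carried by fewer cells, 12.6, 14.3, 22.5 and 23.0% unthinned, at 1491 and 1303 CPM in the Cre- libraries and 2201 and 1468 CPM in the Cre+ libraries. Granzyme K (Gzmk), which marks less differentiated effector and memory cells, was at 99.2 and 180.1 CPM in the Cre- libraries and 92.9 and 23.0 CPM in the Cre+ libraries, lowest in Cre+ replicate 4 and highest in Cre- replicate 3, the libraries with the highest and the lowest Gzmb. Perforin (Prf1), which opens the target membrane, was at 48.4, 79.4, 41.7 and 24.2 CPM, and interferon gamma (Ifng) at 53.8, 237, 64.9 and 29.0 CPM, where Cre- replicate 3 stood apart.

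Chemokines followed their own orders. Ccl5, which draws T cells and monocytes, was at 4686 and 6749 CPM in the Cre- libraries and 6916 and 1699 CPM in the Cre+ libraries, lowest in Cre+ replicate 4, and its thinned shares were 72.7, 79.7, 85.3 and 52.4% against at most 0.878% in epithelial and 3.67% in macrophage barcodes. Ccl4 stood at 312, 1109, 884 and 309 CPM. Xcl1, the ligand that recruits cross-presenting dendritic cells, went the other way at 831 and 511 CPM in the Cre- libraries and 1136 and 2145 CPM in the Cre+ libraries, highest in Cre+ replicate 4, with both Cre+ values above both Cre- values.

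Naive transcripts were present in a minority. A UMI of Ccr7 or Lef1 was found in 28.0, 27.1, 20.2 and 28.9% of members, and in 10.5% (5.99 to 16.7), 5.26% (2.14 to 10.5), 3.10% (0.851 to 7.75) and 6.42% (3.36 to 10.9) after thinning to 1000 UMIs, against at most 0.684% of epithelial barcodes. Ccr7 was at 19.994, 40.6, 17.6 and 17.5 CPM and Lef1 at 46.1, 60.0, 24.0 and 31.6 CPM. Tcf7, the transcription factor of naive, memory and stem-like cells, was at 84.6 and 119 CPM in the Cre- libraries and 89.7 and 34.6 CPM in the Cre+ libraries, and the survival cytokine receptor Il7r at 81.5, 173, 118 and 50.9 CPM. Both were lowest in Cre+ replicate 4 and highest in Cre- replicate 3.

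Of the inhibitory receptors, Pdcd1 was found in 162 of 592 members, Lag3 in 125, Tigit in 20 and Havcr2 in 18, while Cd160 was found in 342. Pdcd1 was at 115 and 177 CPM in the Cre- libraries and 72.1 and 45.0 CPM in the Cre+ libraries, with a UMI in 31.5, 36.1, 23.3 and 20.9% of members and, thinned, in 10.5% (5.99 to 16.7), 15.8% (10.0 to 23.1), 4.65% (1.73 to 9.85) and 6.95% (3.75 to 11.6). Epithelial barcodes reached 0% and macrophage barcodes 0.579%. Lag3 was at 36.9, 37.9, 24.0 and 23.8 CPM and found in 21.0, 21.1, 18.6 and 23.0% of members before thinning. Havcr2 had 26 UMIs and Tigit 21 in all members. Thinned macrophage barcodes, cells known to express Havcr2, held it in 5.62 to 6.40%, thinned epithelial barcodes in at most 0.171% and thinned members in at most 1.5038%. Tox, a factor that the exhausted state depends on, was at 158, 103, 100.2 and 42.7 CPM and found in 258 members, and Ctla4, another brake on activation, was at 99.972, 81.3, 24.8 and 28.6 CPM and found in 156. Pdcd1 and Lag3 met in 58 members, Pdcd1 and Havcr2 in 14 of the 18 with Havcr2, all 3 receptors in 8, Pdcd1 and Tox in 105 of the 162 Pdcd1-positive members, and Pdcd1 and Gzmb in 92 of them. The part of free RNA in the Havcr2 UMIs was not tested. The background classes had median depths of 14070 to 25497 UMIs (epithelial) and 10830 to 17201 UMIs (macrophage), above the median of the members in each library, and cells were thinned to one depth for this reason.

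**Figure D1:**
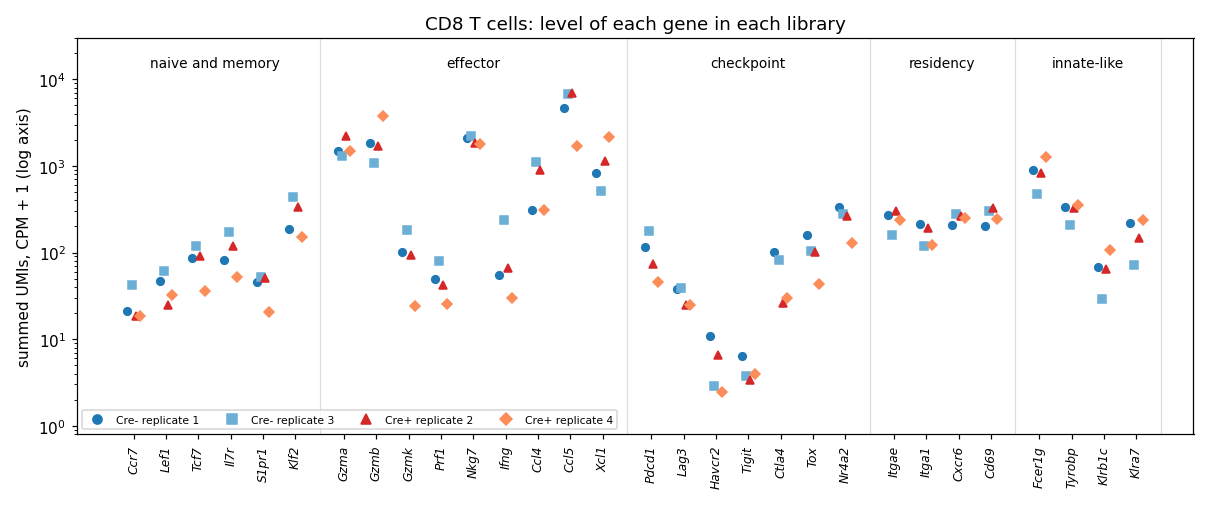
Level of naive, effector, checkpoint, residency and innate-like genes in the CD8 T cells of each library, as CPM of summed UMIs plus 1 on a log axis; blue symbols are Cre- and red or orange symbols Cre+ mice. Cre+ replicate 4 is highest for Gzmb and Xcl1 and lowest for Ccl5, Gzmk and Tox.

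The residency genes Cxcr6, Cd69 and Itgae did not order the libraries by genotype. Cxcr6, a chemokine receptor of resident T cells, was at 205, 278, 266 and 247 CPM, the activation and retention antigen Cd69 at 204, 301, 329 and 242 CPM, and Itgae (CD103, the integrin that binds epithelial E-cadherin) at 268, 159.8, 298 and 233 CPM. The residency factor Zfp683 (Hobit) had 20 UMIs in all. Proliferation genes were present: Mki67 was found in 103 members and Top2a in 150, at 87.7, 174, 95.4 and 151 and 105, 200.4, 152 and 251 CPM. After thinning, Mki67 was held by 2.80, 4.51, 9.30 and 7.49% of members and by 1.93 to 3.71% of epithelial barcodes, and no cycling state is read from these shares.

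Totals over whole gene lists differed between the libraries. The 20 cytotoxic effector genes summed to 7763, 7019, 7969 and 9509.7 CPM (Gzmb the most abundant), the 14 naive and central memory genes to 1674, 1918, 1709.9 and 1263 CPM (Bcl2), and the 20 exhaustion genes to 2046, 1518, 1539 and 1277 CPM (Nr4a2). Cre+ replicate 4 had the highest cytotoxic sum and the lowest naive and exhaustion sums, and Cre- replicate 1 had the highest exhaustion sum. Gzmb made up 3810.2 CPM of that cytotoxic sum, while Gzmk, Prf1 and Ifng of the same list were lowest in Cre+ replicate 4. The order of the cytotoxic sums therefore follows Gzmb and not the whole list. The 6 effector chemokines summed to 6002, 8584, 9098 and 4435 CPM, set by Ccl5, and the 12 innate-like killer genes to 3677, 2017, 3229 and 4188 CPM (Fcer1g), lowest in Cre- replicate 3. The 8 progenitor exhausted genes summed to 1623, 1183, 1794 and 2507 CPM, set by Xcl1, which made up 2145 CPM of the sum in Cre+ replicate 4. Tcf7, Slamf6, Cd28 and Icos of this list were lowest in that library, so its high sum is that of Xcl1 alone. The 12 chemokine and homing receptors summed to 1578, 1883, 1498 and 1025 CPM (Selplg), lowest in Cre+ replicate 4. Immediate early and heat shock genes, which tissue dissociation induces, summed to 4038, 4406, 5077 and 3347 CPM over 12 genes (Junb), highest in Cre+ replicate 2. Interferon response genes summed to 583, 745, 798 and 652 CPM over 11 genes (Bst2). Among genes used to mark progenitor exhausted cells, Slamf6 was at 23.1, 32.3, 20.032 and 7.43 CPM, Id3 at 22.3, 21.2, 97.8 and 28.6 CPM, where Cre+ replicate 2 stood apart, and Cxcr5 had 6 UMIs in all. Il2rb, the interleukin-2 and interleukin-15 receptor chain, was at 701, 378, 361 and 492 CPM, and the memory antigen Ly6c2 at 417, 739, 514 and 248 CPM.

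To compare the naive and checkpoint ends inside the members, a naive gate took cells with at least 2 UMIs of Ccr7 and Lef1 together and 0 of Pdcd1, Havcr2 and Lag3, and a checkpoint gate took the reverse. The naive gate held 16, 16, 13 and 22 members and the checkpoint gate 39, 36, 24 and 39. Another 26 members had UMIs of both sets, 229 had neither, and 132 had 1 UMI of a single set, just short of a gate. These are ranges cut from counts, not cell types, and the 5 gate genes are left out of every count below. The checkpoint-gated members were higher in most exhaustion genes tested, Tox among them, and in granzymes A and B, and lower in most naive genes tested. The sums held 102484 to 278346 UMIs (naive gate) and 282785 to 597792 UMIs (checkpoint gate) per library. Compared within libraries by edgeR's quasi-likelihood test with Benjamini-Hochberg adjustment, as in each test across genes below, 197 of 4707 genes were called at an adjusted p under 0.05 (4.19%), 99 higher (2.1%) and 98 lower (2.08%) in the checkpoint gate.

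Most naive-associated genes tested outside the gate genes were lower in checkpoint-gated members. Of 11 further genes of the naive and central memory list that were tested, 7 were lower and 0 higher (median log2 difference -2.43, against -0.01 over all genes). S1pr1, the receptor by which T cells leave tissue for the blood, was at 100.5, 94.1, 195 and 126 CPM in naive-gated and 13.0, 10.6, 28.3 and 3.35 CPM in checkpoint-gated members, without overlap (log2 fold change -3.57 ± 0.40 (SE), adjusted p = 6.7e-05). Tcf7 fell from 136, 201, 351 and 137 CPM to 48.8, 60.1, 38.9 and 6.69 CPM (-2.71 ± 0.37), and the chromatin organizer Satb1 from 331, 314, 409.8 and 331 CPM to 45.5, 28.3, 14.1 and 80.3 CPM (-3.19 ± 0.35). Ly6c2, a surface antigen of memory and recently activated cells, fell as well (-3.63 ± 0.43). Slamf6, used to mark progenitor exhausted cells, was lower in the checkpoint gate too (-2.77 ± 0.50, adjusted p = 0.0048).

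Of 14 tested exhaustion genes beyond Pdcd1 and Lag3, 10 were higher and 0 lower (median 1.78). Tox was at 29.6, 31.4, 29.3 and 3.59 CPM in naive-gated and 371, 240.5, 145 and 71.9 CPM in checkpoint-gated members (log2 fold change 3.03 ± 0.35 (SE), adjusted p = 8.6e-05). The nuclear receptor Nr4a2, induced by T cell receptor signaling, showed the same order in each library, 94.6, 125, 48.8 and 7.19 against 790.4, 583, 491 and 229 CPM (log2 fold change 2.89 ± 0.32 (SE), adjusted p = 6.8e-05). Ctla4 (2.43 ± 0.43), Entpd1 (CD39, 2.12 ± 0.53), Nr4a3 (1.304 ± 0.28), Tnfrsf9 (4-1BB, 1.44 ± 0.39), Cd244a (2.17 ± 0.43) and Litaf (1.38 ± 0.33) also rose. Rgs16, a brake on G protein signaling, had 111 UMIs in the checkpoint gate and 0 in the naive gate, where it was at least 17.8-fold lower (floor of 3 counts over the group). The receptor Cd200r4 had 0 UMIs in the naive gate, at least 11.7-fold lower than in the checkpoint gate.

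The effector list moved in part, with 6 of 16 tested genes higher and 0 lower. Naive-gated members held effector transcripts too, so the gate is not a pure naive state. Their Ccl5 was at 1218, 2861, 4098 and 1380 CPM, and the difference was not called (0.94 ± 0.30, adjusted p = 0.098). Nkg7 was at 1625, 1230, 1064 and 1408 CPM in them and higher in the checkpoint gate (0.69 ± 0.17, adjusted p = 0.033). Gzmb stood at 679.7, 75.3, 58.5 and 1379.6 CPM in naive-gated and 949.8, 1206, 1650.3 and 4931 CPM in checkpoint-gated members (log2 fold change 2.19 ± 0.44 (SE), adjusted p = 0.011), and Ccl4 and Xcl1 rose (1.58 ± 0.41 and 1.84 ± 0.36), Ccl4 in 3 of 4 libraries. Gzma was at 0, 0, 19.5 and 10.8 CPM against 787, 3.54, 3657 and 2802 CPM (log2 fold change 7.79 ± 0.37 (SE), adjusted p = 3.9e-09), with 5 UMIs in the naive gate and 2953 in the checkpoint gate, where Cre- replicate 3 alone stayed low, at 1 UMI. The inhibitory chain Klrc1 (NKG2A) gave -1.03 ± 0.29 with adjusted p = 0.056, and Prf1 gave -0.05 ± 0.38 with adjusted p = 0.98. Of 9 tested residency genes 3 were higher and 0 lower, and Cd69 gave -0.47 ± 0.34 with adjusted p = 0.62. Of 9 chemokine and homing receptors 1 was higher (Cxcr6) and 2 lower (S1pr1 and the integrin Itgb7). Itgae rose (2.12 ± 0.37), as did Cxcr6 (1.00 ± 0.24), Rgs1 (1.25 ± 0.22) and the adaptor genes Tyrobp (5.25 ± 0.46) and Fcer1g (2.48 ± 0.55). None of 15 cell cycle genes and none of 12 receptor complex genes passed the test.

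Stromal transcripts moved with the gate. The stromal list summed to 106, 81.6, 137 and 32.3 CPM in naive-gated and 345, 163, 10459.9 and 328 CPM in checkpoint-gated members, with 4 of 6 tested genes higher, and the vascular gene Igfbp7 had 2 and 599 UMIs. Granulocyte markers summed to 6.51, 4148, 3.53 and 76.9 CPM in checkpoint-gated members. Macrophage and monocyte markers summed to 301, 389, 546 and 284 CPM in naive-gated and 283, 835, 371 and 522 CPM in checkpoint-gated members. Of 5 tested genes of that list 1, Cd14, was higher (149 UMIs against 7) and 0 lower. The part of macrophage RNA in Tyrobp and Fcer1g was not tested. Without the 24 members that carried other cells' markers, 150 genes were called, and Tox, Nr4a2 and Gzma gave log2 differences of 3.06, 2.94 and 8.00, while Igfbp7 and the collagen gene Col4a1 fell under the count filter and were not tested. The number called fell to 95, 68 or 127 without replicates 1, 2 or 3 and was 176 without replicate 4. Gzmb lost its call when the library was not a term in the fit (adjusted p = 0.21), without replicate 2 (adjusted p = 0.052) and with DESeq2 (adjusted p = 0.052). Without scale normalization all genes had a median log2 difference of 0.17 and the split became 138 higher and 58 lower; DESeq2 called 110, 32 higher and 78 lower.

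**Figure D2:**
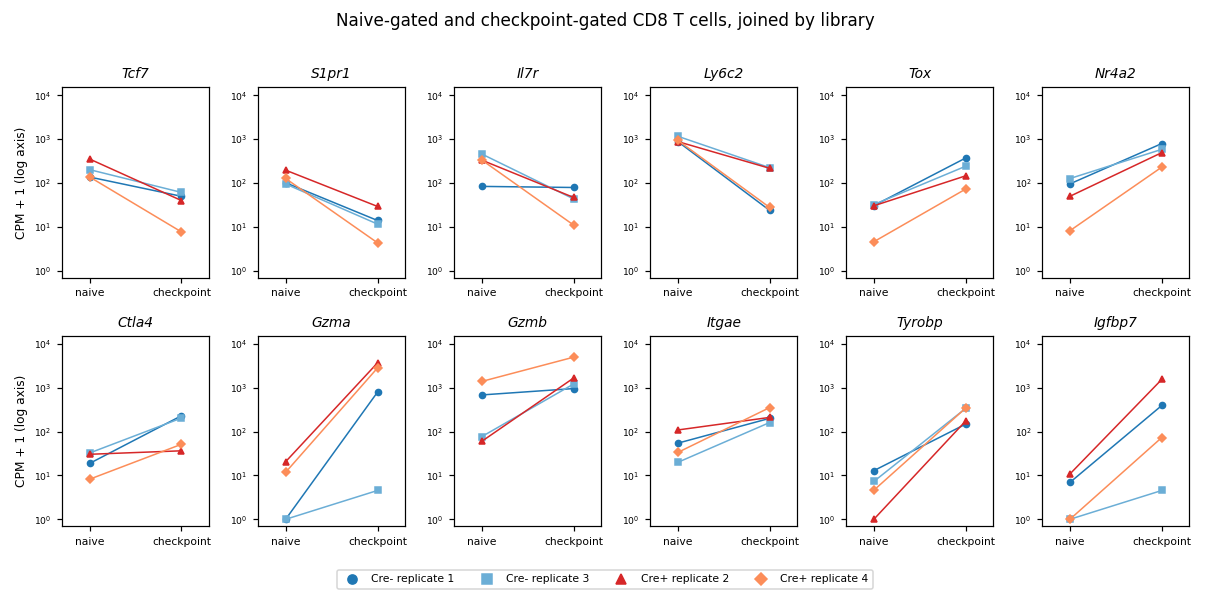
CPM plus 1 (log axis, the same in all panels) of 12 genes in naive-gated and checkpoint-gated CD8 T cells, each line joining the values of 1 library. Tcf7, S1pr1 and Ly6c2 fall and Tox, Nr4a2, Gzmb and Tyrobp rise in all 4 libraries, and Gzma and the vascular gene Igfbp7 rise in 3 and stay low in Cre- replicate 3.

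Members with Cd8a but no Cd8b1 UMI differed from the rest in their killer receptors. They made up 28.0% (20.8 to 36.1), 12.8% (7.63 to 19.7), 26.4% (19.0 to 34.8) and 22.5% (16.7 to 29.1) of members, 133 in all against 459 with Cd8b1. Their median depth was 9520 and 7111 UMIs in the Cre- and 10203 and 14760 UMIs in the Cre+ libraries, against 6628 and 6381 UMIs and 7672 and 13285 UMIs for Cd8b1-positive members. They were higher in Fc receptor adaptors, Ly49 receptors and granzymes B and C, and lower in granzyme K, interferon gamma, Cd28 and homing and memory genes. Of 7941 genes 327 were called (4.12%), 141 higher (1.78%) and 186 lower (2.34%) in Cd8a-only members.

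Of 11 tested innate-like killer genes 10 were higher and 0 lower (median 2.25, against -0.02 over all genes). Fcer1g, the signaling chain shared by Fc and activating receptors, was at 428, 239, 316 and 952 CPM in Cd8b1-positive and 1888, 1939, 2070.3 and 2334 CPM in Cd8a-only members (log2 fold change 2.25 ± 0.20 (SE), adjusted p = 6.6e-06). Thinned to 1000 UMIs, 72.5% (56.1 to 85.4), 47.1% (23.0 to 72.2), 64.7% (46.5 to 80.3) and 76.2% (60.5 to 87.9) of Cd8a-only members held it, against 13.6, 5.17, 8.42 and 33.1% of Cd8b1-positive members, 3.33, 5.88, 10.8 and 6.67% of CD4 T cells and 1.80, 2.57, 1.95 and 3.99% of epithelial barcodes. Macrophages express Fcer1g and Tyrobp strongly, and macrophage markers summed to 188, 409, 421 and 548 CPM in Cd8a-only and 316, 560.2, 484 and 345 CPM in Cd8b1-positive members, lower in Cd8a-only members in 3 of 4 libraries. In the barcodes of Cre+ replicate 4 with at most 100 UMIs, Fcer1g stood at 1549 CPM and Tyrobp at 1492 CPM, against 1268 and 350.1 CPM in the members of that library. Tyrobp (DAP12), the adaptor of activating NK receptors, rose from 132, 123, 126 and 158 to 759.5, 745, 788 and 999.5 CPM (log2 fold change 2.60 ± 0.11 (SE), adjusted p = 1.4e-09). Klra7, of the Ly49 receptors for MHC class I, rose from 94.3, 19.3, 11.4 and 123 to 469, 396, 465 and 619 CPM (3.11 ± 0.32), and Klra1 and Klra5 rose by 2.71 and 2.55; near-identical Klra genes can share reads, so which member is meant is uncertain. Klrb1c (NK1.1), Cd7 and Klre1 rose by 2.29 ± 0.32, 2.05 ± 0.15 and 1.29 ± 0.15.

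The transcription factor Ikzf2 (Helios) was at 112, 114, 105 and 129.6 CPM in Cd8b1-positive and 855, 510.0, 633 and 499 CPM in Cd8a-only members (log2 fold change 2.39 ± 0.16 (SE), adjusted p = 3.6e-07), and 117 of 133 Cd8a-only members had a UMI of it against 138 of 459. Gzmb rose by 0.99 ± 0.13, Gzmc by 2.98 ± 0.47 and Xcl1 by 1.48 ± 0.24, all higher in each library. The cytotoxic effector list as a whole was divided, with 5 of 19 tested genes higher (Gzmb, Gzmc, Ctsw, Klrd1 and Klrk1) and 3 lower (Gzmk, Ifng and Eomes; median -0.10). Ifng was at 16.7, 114, 38.0 and 13.0 CPM in Cd8a-only against 71.6, 257, 76.1 and 33.7 CPM in Cd8b1-positive members, lower in each library (log2 fold change -1.35 ± 0.23 (SE), adjusted p = 0.0019), and Eomes gave -1.61 ± 0.43 (adjusted p = 0.048, 0.32 without replicate 1 and 0.26 without replicate 2). Of 9 tested residency genes 4 were higher and 1 lower: the integrins Itgae and Itga1 rose by 0.97 ± 0.15 and 1.00 ± 0.15, the signaling regulators Rgs1 and Rgs2 were also higher, and Cxcr6 was lower in each library (log2 fold change -0.93 ± 0.16 (SE), adjusted p = 0.0027). The inhibitory receptors Cd160 and Cd244a rose by 1.05 ± 0.21 and 1.46 ± 0.19. Of 12 T cell receptor complex genes 0 were higher and 4 lower, Lat (-1.15 ± 0.20), Cd5, Cd28 and Thy1 (-0.82 ± 0.12). Trac was at 643, 672, 574 and 533 CPM in Cd8b1-positive and 602, 617, 617 and 411 CPM in Cd8a-only members (-0.14 ± 0.11, adjusted p = 0.69), with a Trac UMI in 127 of 133 Cd8a-only members; the delta chain gene Trdc was found in 4 of them. The gamma chain genes Tcrg-C1, Tcrg-C2 and Tcrg-C4 were higher (1.52 ± 0.36, 0.52 ± 0.13 and 0.98 ± 0.18), and these constant genes are close copies of each other.

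On the other side, 7 of 13 tested naive and central memory genes were lower in Cd8a-only members and 1, Txk, higher, and 6 of 11 chemokine and homing receptors were lower. S1pr1 had 7 UMIs against 220 (-3.40 ± 0.40), Ccr7 1 against 138 (ratio 44.9, 95% counting interval 7.93 to 1787), and Cd28, the main costimulatory receptor, stood at 40.5, 80.5, 24.5 and 16.3 against 273, 246, 189 and 51.1 CPM (log2 fold change -2.32 ± 0.23 (SE), adjusted p = 2.0e-05). Gzmk was at 2.38, 40.3, 21.7 and 0 against 145, 202, 123 and 29.9 CPM (-3.34 ± 0.39), Ly6c2 fell by 1.63 ± 0.17, and Cd5, which tracks receptor signal strength, changed by -1.77 ± 0.31. Pdcd1 was lower as well, at 71.4, 33.6, 29.9 and 13.0 against 135, 200.3, 89.8 and 54.4 CPM (log2 fold change -1.59 ± 0.25 (SE), adjusted p = 0.00095), as were Ctla4 (-1.61 ± 0.28) and Icos (-1.30 ± 0.26). The exhaustion list as a whole was divided, with 5 of 16 tested genes higher and 2 lower (median 0.001). Higher were Cd160, Cd244a, Tnfrsf9, Litaf and Cd200r4, and lower were Pdcd1 and Ctla4. The naive gate held 4 of 133 Cd8a-only and 63 of 459 Cd8b1-positive members, the checkpoint gate 23 and 115, and 68 and 161 had neither set. None of 15 cell cycle genes passed.

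Stromal, vascular and granulocyte transcripts were lower in the summed counts of Cd8a-only members, with 6 of 8 stromal and 2 of 2 granulocyte genes called. Stromal markers summed to 76.2, 121, 2212 and 120.3 CPM against 1318, 329, 5947 and 254 CPM. Of 592 members only 14 reached the stromal and 3 the granulocyte limit given above. Leaving out the 24 members with other cells' markers took Cd8a-only members from 40, 17, 34 and 42 to 40, 17, 31 and 40. Cd8b1-positive members went from 103, 116, 95 and 145 to 100, 111, 88 and 141. These calls can therefore rest on few cells and are not read as a trait of the class. Among the 10 genes with the lowest fitted log2 fold change were the vascular Egfl7, Flt1, Plvap and Esam, with 0 UMIs in Cd8a-only members (Egfl7 at least 12.7-fold lower), and S100a8 and S100a9, with 2 and 3 UMIs against 496 and 759. Without the 24 members with other cells' markers 286 genes were called (151 higher, 135 lower), and Fcer1g, Tyrobp, Ikzf2 and Cd28 gave 2.24, 2.75, 2.29 and -2.42. The number called was 169, 123 or 175 without replicates 1, 2 or 3. With DESeq2 it was 166 (93 higher, 73 lower), where Eomes, Il7r and Xcl1 lost their calls, and without the library as a term 57, where Cxcr6, Eomes, Gzmc, Gzmk, Ifng, Il7r, Pdcd1 and Xcl1 did; Xcl1 also lost its call without replicate 2 (adjusted p = 0.075).

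**Figure D3:**
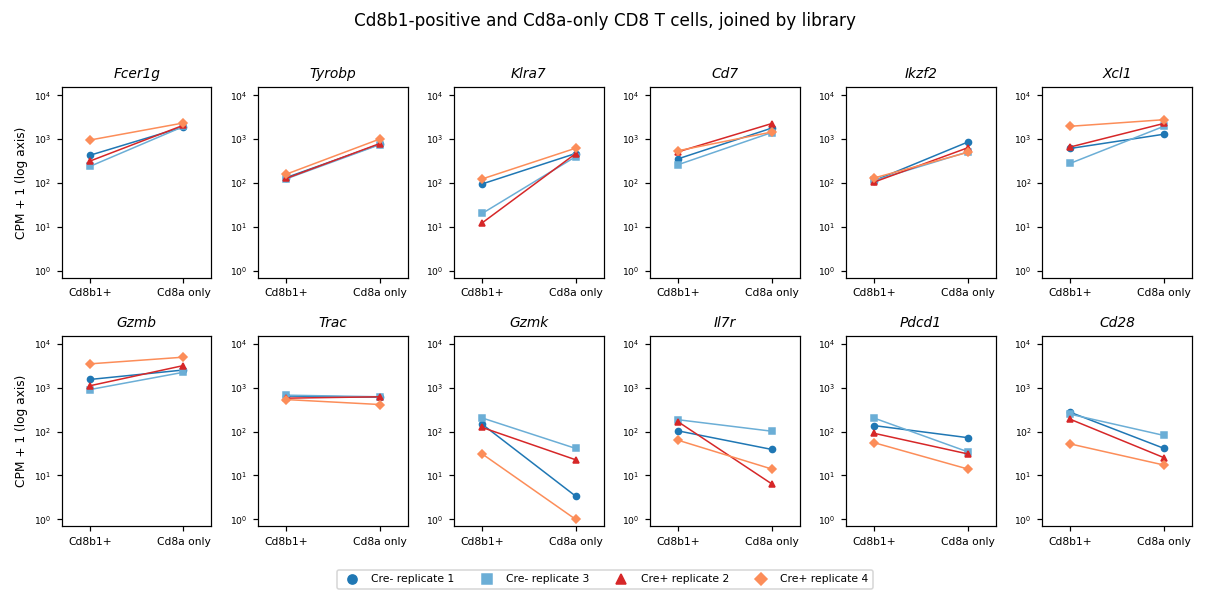
CPM plus 1 (log axis, the same in all panels) of 12 genes in Cd8b1-positive and Cd8a-only CD8 T cells, each line joining the values of 1 library. Fcer1g, Tyrobp, Klra7, Cd7 and Ikzf2 are higher and Gzmk, Il7r, Pdcd1 and Cd28 lower in the Cd8a-only members of all 4 libraries, and Trac differs little.

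Beside the CD4 T cells of the same tumors, which help and regulate rather than kill, the CD8 T cells were higher in most cytotoxic and innate-like killer genes tested. CD4 T cells were 30, 68, 37 and 15 barcodes with the same Cd3, C1q and epithelial limits, at least 1 Cd4 UMI and 0 of Cd8a, Cd8b1 and Foxp3, and their sums held 110026 to 371540 UMIs. Of 7858 genes 613 were called (7.8%), 319 higher (4.06%) and 294 lower (3.74%) in CD8 T cells. Of 19 tested cytotoxic effector genes 15 were higher and 0 lower, and of 10 innate-like killer genes all 10 were higher. Gzmb was at 156, 26.9, 3.95 and 27.3 CPM in CD4 T cells, far under the levels of the CD8 T cells given above (log2 fold change 5.38 ± 0.39 (SE), adjusted p = 5.7e-07). Prf1 had 1 UMI in CD4 T cells and 266 in CD8 T cells (ratio 37.7, 95% counting interval 6.70 to 1494). Of 6 effector chemokines 4 were higher (Ccl3, Ccl4, Ccl5 and Xcl1) and 1, Ccl1, lower (-3.09 ± 0.55). Ccl5 was at 729, 1074, 813 and 63.6 CPM in CD4 T cells (log2 fold change 3.05 ± 0.19 (SE), adjusted p = 1.9e-07), and Klrd1 (CD94), a partner chain of NKG2 receptors, differed by 3.57 ± 0.24. Klra7 had 0 UMIs in CD4 T cells, at least 55.4-fold lower than in CD8 T cells. Itgae (2.73 ± 0.24) and Cd7 (5.15 ± 0.30) were also higher.

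Of 15 tested cell cycle genes 7 were higher and 0 lower in CD8 T cells, among them Pclaf (3.32 ± 0.48) and Birc5 (2.59 ± 0.50), while Mki67 gave 1.33 ± 0.42 with adjusted p = 0.068. CD8 T cells were lower in 9 of 10 CD4 helper and regulatory genes, the exception being Ikzf2. Cd40lg, which licenses B cells and dendritic cells, was at 74.8, 99.6, 82.9 and 99.976 CPM in CD4 and 3.08, 3.69, 4.01 and 1.86 CPM in CD8 T cells (log2 fold change -4.76 ± 0.38 (SE), adjusted p = 1.5e-06), and Tnfrsf4 (OX40) was lower by 5.87 ± 0.25. Ccr6 had 25 UMIs in CD4 and 0 in CD8 T cells, at least 58.8-fold lower. Il7r (-2.76 ± 0.20), Icos (-2.57 ± 0.25) and Ctla4 (-2.10 ± 0.34) were lower too. The exhaustion list was divided, 5 of 16 genes higher (Tox, Cd244a, Cd160, Nr4a2 and Litaf) and 3 lower (Ctla4, Nr4a3 and Bhlhe40), and Pdcd1 gave 0.66 ± 0.28 with adjusted p = 0.2. Markers of other cells moved in this comparison too. Higher in CD8 T cells were 2 of 2 tested granulocyte, 2 of 7 stromal, 1 of 4 dendritic cell and 1 of 2 B cell genes, with 0 lower. Among 6 epithelial and milk genes 1 was lower and 0 higher, and among 5 macrophage and monocyte genes 1 was higher and 1 lower. The part of these transcripts in the calls was not tested. The number called was 368 without the library as a term and 362 without replicate 1, and with DESeq2 the split was 178 higher and 256 lower.

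NK cells, innate killers without a rearranged receptor, were 33, 30, 38 and 98 barcodes with 0 UMIs of Cd3, Cd8 and Cd4 genes and at least 1 of Ncr1 or Klrb1c. Against them CD8 T cells were higher in most T cell receptor complex genes. Of 14 naive and central memory genes 7 were higher and 1, Igfbp4, lower, and of 10 innate-like killer genes 6 were lower and 1, the cytokine receptor Il21r, higher. Of 9605 genes 723 were called (7.53%), 279 higher (2.9%) and 444 lower (4.62%) in CD8 T cells. Of 12 tested T cell receptor complex genes 10 were higher and 0 lower, with Trac at 6.90, 14.7, 6.77 and 6.46 CPM in NK cells (log2 fold change 6.17 ± 0.20 (SE), adjusted p = 2.1e-05), and the thymic selection factor Themis and the receptor Cd6 had 0 UMIs in NK cells, at least 70.2-fold and 123-fold lower. Gzmk had 502 UMIs in CD8 T cells and 3 in NK cells (ratio 81.2, 95% counting interval 27.6 to 395), Cxcr6 differed by 3.55 ± 0.31, Pdcd1 by 3.72 ± 0.58 and Il7r by 3.23 ± 0.35. Of 11 interferon response genes 4 were higher, Ifit3 by 2.38 ± 0.57, and 0 lower. Tyrobp was at 1295, 1619, 1232 and 2074 CPM in NK cells (log2 fold change -2.34 ± 0.19 (SE), adjusted p = 0.00077), Fcer1g was lower in CD8 T cells by 1.22 ± 0.19, Klri2 by 6.03 ± 0.24 and Prf1 by 2.38 ± 0.35. Gzmb gave 0.26 ± 0.31 (adjusted p = 0.68) and Xcl1 -0.93 ± 0.26 (adjusted p = 0.077), so neither was shown to differ. Against CD4 T cells the same CD8 sums were higher by 4.16 ± 0.19 for Fcer1g and 3.78 ± 0.27 for Tyrobp, so CD8 T cells lay between CD4 T cells and NK cells for both. Stromal markers summed to 12819, 6395, 20870.3 and 152 CPM in the NK barcodes, far above the CD8 T cells in all but Cre+ replicate 4. Dendritic cell markers summed to 1111, 6806, 1239 and 203 CPM there, above the CD8 T cells in each library, with 2 of 5 tested genes lower in CD8 T cells. Macrophage and monocyte markers summed to 462, 893, 1519.8 and 937 CPM, also above, with 2 of 7 lower. Stromal genes called in CD8 T cells were 1 higher and 0 lower of 8 tested, and granulocyte genes 2 higher and 0 lower of 4. The part of these transcripts in the calls was not tested; without cells carrying other cells' markers 575 genes were called. The number called moved to 196, 239 or 216 without replicates 1, 2 or 3, to 1365 without replicate 4 and to 206 without the library as a term. Ccl5 (1.54 ± 0.23) lost its call without replicate 3 (adjusted p = 0.064) and Prf1 without replicate 1 (adjusted p = 0.055).

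**Figure D4:**
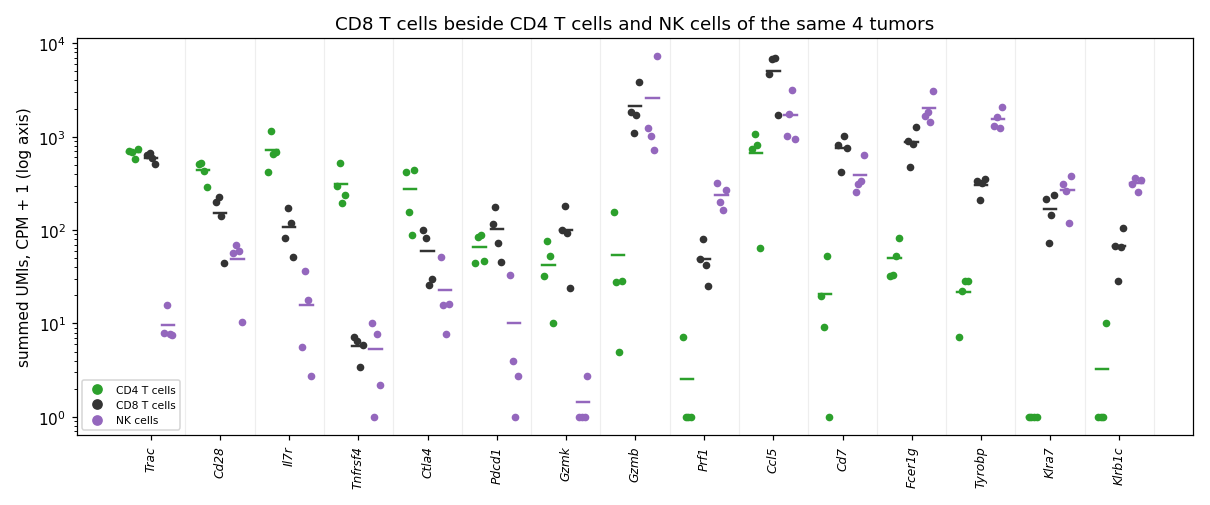
CPM plus 1 (log axis) of 15 genes in CD4 T cells (green), CD8 T cells (black) and NK cells (purple) of the same tumors; each point is 1 library and each bar the mean of 4, and Klrb1c was used to choose the NK cells. The Trac points of CD8 and CD4 T cells overlap, and for Fcer1g and Tyrobp the CD8 T cells lie between the other classes.

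The study asked what loss of Frmd8, which encodes a FERM domain protein, does in these tumors, and the comparison of Cre+ with Cre- members addresses its T cells. Frmd8 itself was at 73.8 and 50.8 CPM in the Cre- libraries and 41.7 and 33.1 CPM in the Cre+ libraries in the members, lower in both Cre+ libraries (-0.67 ± 0.27 (SE), unadjusted p = 0.043, adjusted p = 0.98), and at 25.1 and 24.7 CPM in the Cre- libraries and 11.3 and 12.9 CPM in the Cre+ libraries over all barcodes. In the members the 95% Poisson counting intervals were 59.8 to 90.2, 38.3 to 66.1, 31.1 to 54.6 and 26.6 to 40.7 CPM. The interval of Cre- replicate 3 overlapped those of both Cre+ libraries. Whether these 3' counts follow the removal of the floxed exons was not tested. Esr1, the estrogen receptor gene, had 12 UMIs in all members, 10 of them in Cre+ replicate 2. Members made up 56.1% (49.8 to 62.3), 39.5% (34.2 to 44.9), 52.0% (45.6 to 58.4) and 71.1% (65.2 to 76.5) of all T cells, those with at least 2 Cd3 UMIs under the same limits. The Cre- mean was 47.8% and the Cre+ mean 61.6% (SD 11.7 and 13.5, n = 2 libraries each), a difference of 13.8 percentage points that the exact permutation test did not resolve (two-sided p = 0.667, where 0.33 is the smallest that 2 against 2 can give), and the groups overlapped. As a share of all barcodes the members were 2.91% (2.45 to 3.41), 2.25% (1.88 to 2.66), 2.30% (1.92 to 2.73) and 2.63% (2.27 to 3.02), with a Cre- mean of 2.58% and a Cre+ mean of 2.46% (SD 0.465 and 0.230, n = 2 libraries each, exact permutation p = 1.0). The checkpoint gate held 27.3% (20.2 to 35.3) and 27.1% (19.7 to 35.5) of members in Cre- and 18.6% (12.3 to 26.4) and 20.9% (15.3 to 27.4) in Cre+ mice. The 4 shares did not overlap between genotypes, but their counting intervals did. This difference was not tested, and the gates were cut without thinning although depth differed between libraries. The naive gate held 11.2%, 12.0%, 10.1% and 11.8%, with overlap.

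No gene passed the test between genotypes: edgeR called 0 of 8450 genes (0.0%), and DESeq2 called 4 (the histamine enzyme gene Hdc, the agouti gene a, Mt2 and Mt1). In edgeR 224 genes had an unadjusted p under 0.05, fewer than the share of 0.05 that no difference would give on average. In simulated counts the edgeR test recovered 5.0% of genes changed by a log2 difference of 1, so changes of that size could be missed. Genes lower in both Cre+ than in both Cre- libraries made up 19.1% of all tested and genes higher in both 11.5%, and lists are read against those shares. Of 16 tested exhaustion genes 9 were lower without overlap and 0 higher. Pdcd1 (levels above) gave a log2 difference of -1.28 ± 0.32 with adjusted p = 0.98. Ctla4 was at 99.972 and 81.3 CPM in the Cre- libraries and 24.8 and 28.6 CPM in the Cre+ libraries (-1.67 ± 0.25, adjusted p = 0.98), and the other 7 were Lag3, Tox, Nr4a2, Nr4a3, Batf, Bhlhe40 and Prdm1. Of these 9, 7 had their lowest value in Cre+ replicate 4, and Ctla4 and Batf had it in Cre+ replicate 2. Havcr2 and Tigit were too scarce to test. The T-box factor Eomes stood at 94.6, 107, 41.7 and 24.5 CPM (-1.57 ± 0.29) and the costimulator Icos at 111, 107, 49.7 and 33.1 CPM (-1.35 ± 0.25), both lower in each Cre+ library. Of 11 chemokine and homing receptors 7 were lower without overlap, Ccr2 at 51.5, 94.2, 19.2 and 24.9 CPM (-1.62 ± 0.39) and Itgal at 197, 219.8, 135 and 98.5 CPM (-0.78 ± 0.23), and of 12 T cell receptor complex genes 6, with Cd28 at 198, 224, 140.2 and 43.1 CPM (-1.19 ± 0.48).

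The agouti gene a, a coat color gene, had the smallest p. It was at 0 and 0 CPM in the Cre- and 51.3 and 36.0 CPM in the Cre+ members, at least 32.5-fold higher (floor of 3 counts over the group). Its edgeR adjusted p was 0.24, and 0.0014 without the 24 members with other cells' markers. Over all barcodes it was at 2.22 and 1.25 CPM in the Cre- and 306 and 65.7 CPM in the Cre+ libraries. The part of free RNA in it was not tested. Higher in both Cre+ libraries were also Xcl1 (1.39 ± 0.40), Tcrg-C1 at 37.7, 44.3, 88.1 and 76.9 CPM (1.08 ± 0.24), and the metallothioneins Mt1 at 20.8, 51.7, 193 and 113 CPM (2.13 ± 0.46) and Mt2 at 6.15, 9.24, 82.5 and 30.8 CPM (2.90 ± 0.54). The Mt1 difference fell to 0.13 without the 24 members that carried other cells' markers, where Mt2 was too low to test. Of 19 cytotoxic effector genes 5 were lower and 1 higher without overlap (median 0.03, against 0.02 over all genes), so that list did not move one way, and Gzmb gave 1.02 ± 0.45 with overlapping groups. Of 14 naive genes 4 were lower without overlap, and of 15 cell cycle genes 1 was lower and 2 higher. Of 3 tested granulocyte genes 2 were lower without overlap, S100a9 at 72.3, 599, 0.801 and 7.06 CPM. Of 5 epithelial and milk genes 1 was, Wfdc18 at 305, 260.5, 167 and 165 CPM, with a list median of -0.01. The part of these transcripts was not tested.

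Without Cre+ replicate 2, which leaves Cre+ replicate 4 alone and assumed to vary as the 2 Cre- libraries do, 166 genes were called, including Pdcd1 (adjusted p = 0.019, against a range of 0.0016 to 1 over its alternatives) and Xcl1 (adjusted p = 0.0019, range 0.00034 to 1), and without Cre+ replicate 4, which leaves replicate 2 alone under the same assumption, 100 were, 97 of them higher; without replicates 1 or 3 the count was 0. Counting software, depth and genotype cannot be told apart in Cre+ replicate 4, the only library of another software version.

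**Figure D5:**
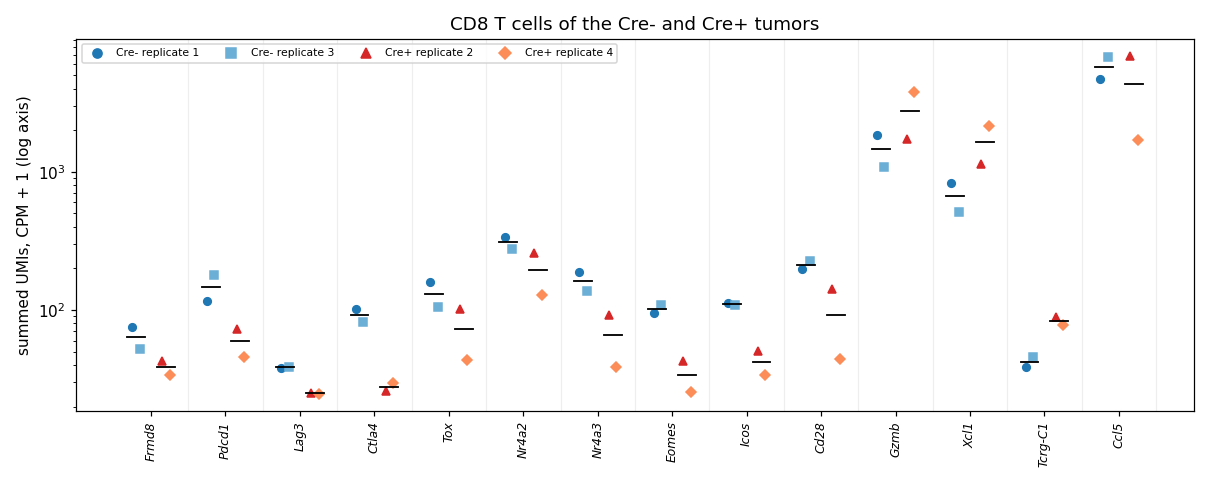
CPM plus 1 (log axis) of 14 genes in the CD8 T cells of Cre- mice (blue, left of each pair) and Cre+ mice (red and orange, right), with bars at the mean of 2 libraries. Frmd8, Pdcd1, Ctla4, Eomes and Icos are lower and Xcl1 and Tcrg-C1 higher in both Cre+ libraries, though no gene passed the adjusted test.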

How the data were processed

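Tumor cells of Cre- and Cre+ mice were profiled by droplet 3' RNA sequencing in 4 libraries. What the authors deposited are UMI counts, not normalized, for every gene and barcode, made with Cell Ranger 6.1.2 for replicates 1 to 3, per the file headers, and with a header naming version 4 for Cre+ replicate 4. The first 3 hold called cells, while replicate 4 holds 2582424 barcodes, most of them empty droplets. The submitters' processing notes name hg38 while the gene identifiers are mouse, so no coordinates are given. Each library held 4922 to 7123 barcodes within the limits given in the report. No doublet caller was run on the 592 members: 11 had over 30000 UMIs and 13 over 5000 genes, and an alternative left these out.

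UMIs were summed per library and class and tested with edgeR 4.0.16 (R 4.3.3; TMM normalization, filterByExpr, quasi-likelihood test, Benjamini-Hochberg threshold 0.05), with the library as a block in comparisons within libraries and genotype alone otherwise. A SE is the log2 fold change divided by its quasi-likelihood t statistic. A class had to hold at least 10 cells per library. Genes used by a rule or gate were left out of counts of calls in lists. DESeq2 1.42.0 was an alternative, and the others were no count filter, no TMM, no block, each library left out, 2000 UMIs, a mitochondrial limit of 10%, at least 2 Cd8 UMIs, the study's upper limits, a gate of 1 UMI, CD4 T cells with any Foxp3 and, chosen after seeing the data, no cells with markers of other cells. Shares were compared by an exact two-sided permutation test, and thinning drew 1000 UMIs per cell without replacement (alternatively 2000). Epithelial and macrophage reference barcodes had at least 20 UMIs per 10000 of Epcam, Krt8 and Krt18 or of C1q genes. The edgeR tests were tried on counts simulated with a dispersion of 0.05, which may differ from that of the data. There the genotype test recovered 5.0% of genes changed by a log2 difference of 1 and 79.0% of those changed by 2. The other software was Python 3.11.15, numpy 2.4.6, scipy 1.17.1, pandas 2.3.3 and matplotlib 3.10.9. Named genes were those of 22 lists plus, per comparison, up to 10 called genes in each direction with the largest fold change and the same sign in all libraries, and Frmd8 and Esr1; genes named outside this rule (Hdc, a, Mt1 and Mt2) were chosen after their values were seen. Of the planned list genes 3, of which 1 was also in the planned naive gate, are not reported here, and lists and gate were computed without them. The members, lists and tests were chosen with earlier results of these data known.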

Additional observations from a re-analysis of the deposited data

Results flagged for a closer look

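The library of Cre+ replicate 4 also held barcodes with at most 100 UMIs, which the comparisons did not use, and transcripts abundant in CD8 T cells were present in them. Gzmb was at 182 CPM in these barcodes, against 3810.2 CPM in the CD8 T cells and 7331 CPM in the NK cells of the library. Xcl1 was at 120.4 CPM against 2145 and 2339 CPM, and Ccl5 at 129 CPM against 1699 and 954 CPM, and which cells this RNA came from was not tested. Cd3g was at 45.2 CPM against 1858 CPM in the CD8 T cells. No such barcodes were analysed for the other libraries, so a level in them cannot be set beside these.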

How the results depend on the processing

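For the 62 genes followed through 799 alternatives, 749 kept their direction and side of the threshold, 24 crossed to a call, 26 lost one and 0 reversed; 38 of the 62 genes kept both under each alternative run for them. Between genotypes the count of 0 became 4 with DESeq2, 191 without a count filter, 2 under the study's upper limits and 1 without cells carrying other cells' markers, and leaving out a library gave 0 to 166. Against CD4 T cells leaving out a library gave 362 to 551 calls, against NK cells 196 to 1365, between gates 68 to 176 and between Cd8a-only and Cd8b1-positive members 123 to 407. The library was a block in the main fits within libraries because both classes came from the same library, and without this pairing by library the counts were 368 (CD4), 206 (NK), 67 (gates) and 57 (Cd8a-only); the genotypes share no replicate number. Without a count filter they were 1420 (NK), 404 (gates) and 584 (Cd8a-only), and DESeq2 gave 110 for the gates and 166 for Cd8a-only members. The share of higher calls went from 52.0% to 41.0% with DESeq2 and 64.7% without a filter against CD4 T cells, and from 50.3% to 29.1% with DESeq2, 70.4% without TMM and 71.0% without a filter between gates. For Cd8a-only members it went from 43.1% to 56.0% with DESeq2, 33.6% without a filter and 63.2% without the block. Against NK cells it was 38.6% and became 50.0% without the block. The genotype difference in the CD8 share of all barcodes ran from -0.443 to 0.215 percentage points with a library left out and turned positive without Cre- replicate 1 (0.215) or Cre+ replicate 2 (0.0489); that in the CD8 share of T cells ran from 4.24 to 23.3. Thinned to 2000 UMIs, the mean share of members rose from 9.47% to 14.9% for Pdcd1 and from 6.32% to 9.95% for Ccr7 or Lef1. These shares follow the depth, and genes with a few UMIs, such as Havcr2 and Tigit, were below what the test could use; the causes of the other changes were not tested.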

Other observations

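Some transcripts came from very few cells. Ccl1, a chemokine of activated T cells, had 395 UMIs, all in 6 members of Cre+ replicate 4. Il17a, the cytokine of type 17 lymphocytes, had 23 UMIs in 2 Cd8a-only members and 0 in Cd8b1-positive members. Ncr1 (NKp46), a natural killer receptor, was found in 13 of 133 Cd8a-only members and in 1 of 459 Cd8b1-positive members. The immunoglobulin heavy chain gene Ighm was found in 283 of 592 members, 92 of 133 Cd8a-only and 191 of 459 Cd8b1-positive, while Cd79a and Ms4a1, which define B cells, were at 0. The lectin-like receptor gene Klrb1a rose in both contrasts within the members, with 91 UMIs in the checkpoint gate against 0 in the naive gate, at least 14.6-fold lower there (floor of 3 counts over the group), and a log2 fold change of 2.89 ± 0.26 (SE) in Cd8a-only members.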
